A study of Mus musculus with 61 samples.

Results

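Col6a3, Gsdma, Scarb2 and Fkbp9 were the genes described here, 4 of the 46078 genes counted in mouse pancreatic ductal organoid cells. Each of the 4 passed the filter on low counts, as did 24004 genes in all. They were chosen by measured values, as genes listed higher where WT Ngn3 was joined by Pdx1 and MafA than where it was joined by Pdx1 alone. The study asked which combinations of these transcription factors reprogram cultured duct cells, and whether a form of Ngn3 that cannot be phosphorylated does so differently. Each library came from 50 sorted cells after 8 days of doxycycline, which switches on lentiviral vectors that carry a factor beside a fluorescent protein (GFP for Ngn3, LSSOrange for Pdx1 and tdTomato for MafA). Organoids are ductal cells grown in 3 dimensions, here from C57BL/6 mice. The counts of Neurog3, Pdx1 and Mafa do not separate transcripts of the vectors from those of the cells' own genes.

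The 12 conditions were cells sorted for Pdx1 (P), MafA (M), Pdx1 and MafA (PM), Ngn3 and Pdx1 (NP), Ngn3 and MafA (NM) or all the factors (NPM). In WT cultures the Ngn3 vector carried the wild-type protein and in 6SA cultures a form in which 6 serines are changed to alanine. Each condition was sorted from both, and P, M and PM cells were the cells of those cultures without the Ngn3 reporter. The cultures also carried the vector for the doxycycline-dependent activator. Replicates 1 and 2 were at passage 2 and replicate 3 at passage 5. Uninfected cells and cells with Ngn3 alone were not analysed here. Whether WT and 6SA cultures of the same number came from the same animals is not given in the sources used here, so p-values measure the spread between these samples, part of which may be technical.

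The quality thresholds given in the methods kept 58 of 61 libraries and left out 3, all of them NPM pools with under 1000000 counts on genes. The methods state a larger number of left-out samples, and the difference could not be settled from the labels. The technical repeats of each replicate were summed, which gave 32 samples with 2579583 to 19461008 counts. There were 2 samples in WT P, WT M, 6SA P and 6SA NPM and 3 in the other conditions. Levels are counts scaled to 1000000 gene counts (CPM) after TMM scaling, a scaling that removes differences in library composition. On plain totals, before TMM scaling, 3 counts corresponded to 0.154 CPM in the deepest sample and to 1.16 CPM in the shallowest, which covers counting error only. Neurog3, the gene of Ngn3, was at 7.87 to 329 CPM in samples sorted for Ngn3 and at most 0.788 CPM in those without it. Mafa was sparse, with 2 to 146 counts in samples with Ngn3 and MafA, 0 to 35 counts in M and PM samples and at most 1 count in P and NP samples. Pdx1 did not separate the labels, at 11.2 to 37.7 CPM in P samples and 4.22 to 19.3 CPM in M samples. Its mean was 129 CPM in WT NPM against 26.2 CPM in WT NP, and 142 CPM in 6SA NPM against 34.9 CPM in 6SA NP. The endocrine markers Chga, Chgb, Neurod1, Insm1, Isl1, Pax6, Scg2 and Scg3 summed to 481 to 13354 CPM with Ngn3. Duct markers were present in every condition.

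MafA is a basic leucine zipper factor that binds Maf recognition elements and drives insulin and other genes of mature beta cells, while Ngn3 starts the endocrine programme and Pdx1 marks pancreatic and beta-cell identity. The 4 genes encode proteins of different compartments. Col6a3 encodes the alpha 3 chain of collagen VI, a beaded-filament collagen that is assembled from the alpha 1, alpha 2 and alpha 3 chains and secreted around cells. Gsdma encodes gasdermin A, a pore-forming protein known from skin and the upper gut. Scarb2 encodes LIMP-2, a lysosomal membrane protein that also carries cargo to lysosomes. Fkbp9 encodes an FK506-binding prolyl isomerase of the endoplasmic reticulum.

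On GRCm38, Col6a3 (ENSMUSG00000048126) lies on the minus strand of chromosome 1 from 90765923 to 90843971. Gsdma (ENSMUSG00000017204) lies on the plus strand of chromosome 11 from 98664351 to 98677708, Scarb2 (ENSMUSG00000029426) on the minus strand of chromosome 5 from 92441314 to 92506833, and Fkbp9 (ENSMUSG00000029781) on the plus strand of chromosome 6 from 56832059 to 56879358. Annotated genes overlap Col6a3 (Gm36970) and Scarb2 (Mir6415), and these had 3 and 2 counts in all kept libraries together. Of the 50-base words in the longest Gsdma transcript, 8.26% also occur in transcripts of its neighbours Gsdma2 and Gsdma3, so reads from that share of Gsdma could not be assigned to it alone. The corresponding share of the copies was not computed. The longest transcripts of the other members shared no such word with another gene.

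The 250 bases upstream of the start site, from RefSeq on GRCm38.p6, are shown for the 3 members matched in the RefSeq promoter table, because the genes were higher together where MafA was added and MafA binds DNA. Capitals mark the letters TGCTGA, the core of a Maf recognition element, on either strand (TCAGCA on the strand shown). Each sequence runs 5′ to 3′ on the strand of its gene, for Col6a3 at chr1:90843972-90844221, for Scarb2 at chr5:92505658-92505907 (the RefSeq start of this gene lies inside the interval given above) and for Fkbp9 at chr6:56831809-56832058.
Col6a3: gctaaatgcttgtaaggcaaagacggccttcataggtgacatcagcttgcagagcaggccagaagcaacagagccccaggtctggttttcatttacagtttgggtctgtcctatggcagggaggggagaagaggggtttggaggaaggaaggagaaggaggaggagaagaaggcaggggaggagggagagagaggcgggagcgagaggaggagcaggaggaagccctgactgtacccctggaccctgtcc
Scarb2: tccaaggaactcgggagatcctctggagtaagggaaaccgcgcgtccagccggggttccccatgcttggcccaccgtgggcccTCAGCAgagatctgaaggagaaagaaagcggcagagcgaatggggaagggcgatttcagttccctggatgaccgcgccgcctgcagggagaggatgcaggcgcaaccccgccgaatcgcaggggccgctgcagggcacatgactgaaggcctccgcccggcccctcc
Fkbp9: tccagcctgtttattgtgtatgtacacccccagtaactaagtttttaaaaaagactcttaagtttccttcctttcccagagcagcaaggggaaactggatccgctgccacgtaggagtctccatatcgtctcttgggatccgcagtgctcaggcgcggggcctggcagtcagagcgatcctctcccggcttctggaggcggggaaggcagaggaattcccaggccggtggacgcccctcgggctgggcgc
Only the Scarb2 window held TGCTGA, starting 167 bases before the start site, and 16.1% of the 32851 promoter windows of this length in the table hold it on either strand. The E-box letters CAGATG and CATATG and the homeobox core TAATTA, searched the same way, were in none of the 3 windows and in 14.4%, 3.46% and 4.84% of all windows. A match of letters is not a bound site.

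In the WT cultures, the comparison that chose the genes, Col6a3 was at 101, 129 and 6.65 CPM in NPM replicates 1, 2 and 3 and at 0.0693, 0 and 0 CPM in NP. Gsdma was at 106, 290 and 12.5 CPM in WT NPM and at 0.416, 0 and 0 CPM in WT NP. Both genes were thus nearly absent from WT NP, with 1 count of Col6a3 and 6 of Gsdma in its samples together, and the ratio of pooled counts was 1914 for Col6a3 (95% exact counting interval 343 to 75615) and 497 for Gsdma (228 to 1355). Scarb2 was at 503, 400 and 112 CPM in WT NPM and 73.3, 39.1 and 63.0 CPM in WT NP, and Fkbp9 at 394, 596 and 125 CPM against 83.2, 44.2 and 70.5 CPM. In each gene the passage 5 sample, replicate 3, was the lowest of WT NPM. The fitted log2 differences were 10.54, 9.20, 2.53 and 2.49 in the order above. These values describe the choice and carry no test, and 0.025% of all genes were called higher in that comparison (adjusted p under 0.05). By p-value the 4 genes came first among genes that were higher, and the next were Gal at 9.70 and Rprml at 5.65 on the log2 scale, which are not among the 4.

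Col6a3 and Gsdma had one pattern over the 12 conditions: both were near the detection limit unless cells were sorted for Ngn3 and MafA together, and both were present there with and without Pdx1. Col6a3 had more than 3 counts in 11 of 11 NM and NPM samples, where it ranged from 3.06 to 129 CPM (median 28.9). It had 0 to 2 counts in the 15 samples without Ngn3 and passed 3 counts in 1 of 6 NP samples. Gsdma had more than 3 counts in the same 11 of 11 samples, at 1.53 to 290 CPM (median 45.2), at most 3 counts in the 15 samples without Ngn3, and over 3 counts in 2 of 6 NP samples. Leaving aside the WT NPM and WT NP cells that chose the genes, Col6a3 was over 3 counts in 14 of 14 pools with Ngn3 and MafA and in 1 of 35 other pools, and Gsdma in 14 of 14 and 2 of 35. The order of Col6a3 means was WT NPM, 6SA NPM, 6SA NM and WT NM, at 78.8, 60.5, 36.5 and 17.3 CPM, and each neighbour in that order overlapped the next. The gap came after WT NM, whose lowest sample at 9.08 CPM was above the highest 6SA NP sample at 0.634 CPM. For Gsdma the same conditions led, with 6SA NPM at 168 ± 5.35 CPM (SD, n = 2), WT NPM at 136 ± 141 CPM (SD, n = 3), 6SA NM at 105 ± 143 CPM (SD, n = 3) and WT NM at 8.34 ± 7.60 CPM (SD, n = 3), again overlapping from neighbour to neighbour. WT NM did not overlap the next condition, 6SA NP, but the passage 5 sample of 6SA NM, at 1.53 CPM, lay below the highest 6SA NP sample at 1.95 CPM.

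**Figure D1:**
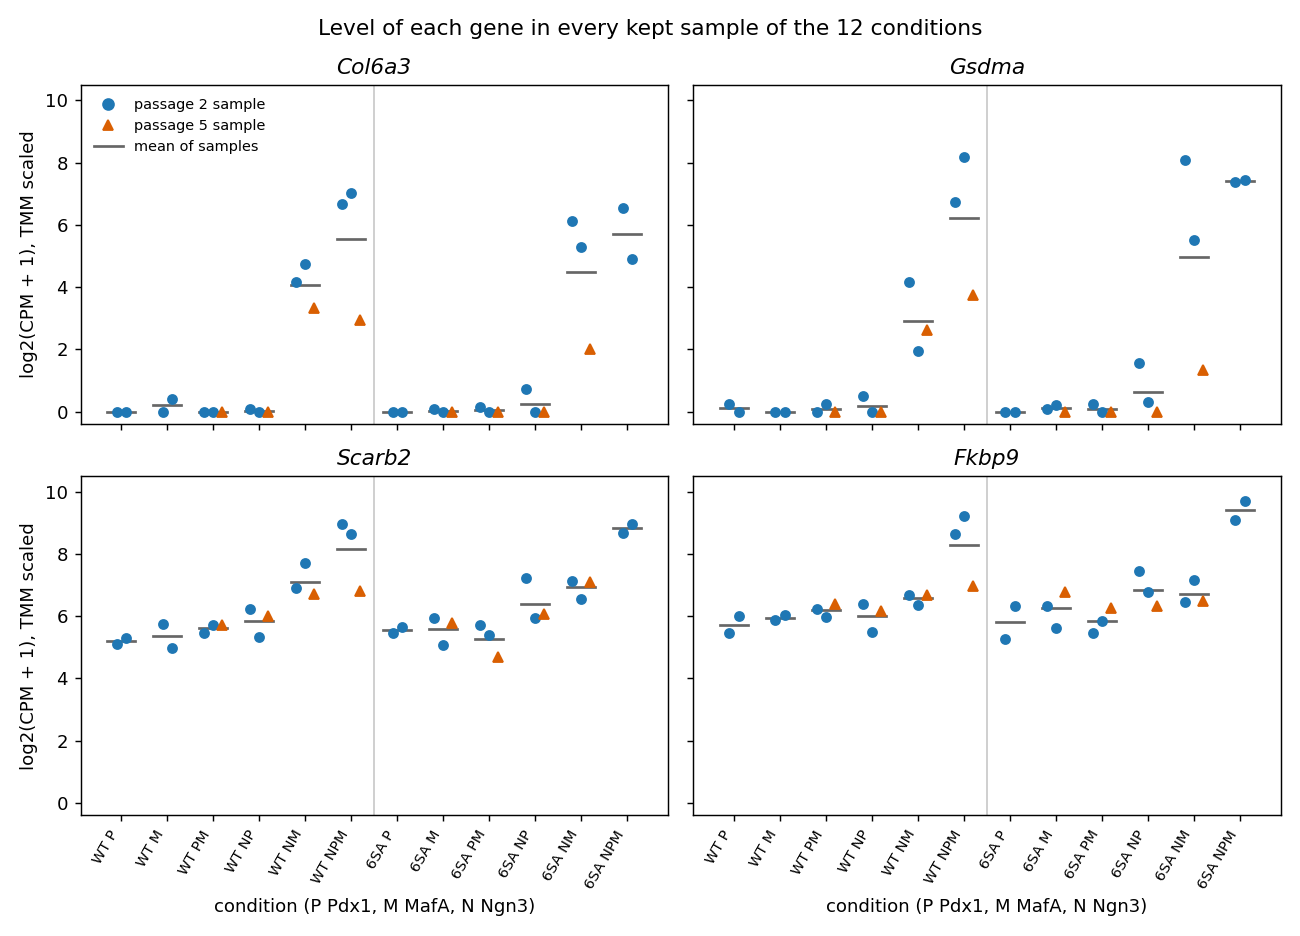
Level of each gene as log2(CPM + 1) on the vertical axis in each kept sample of the 12 conditions on the horizontal axis, with circles for passage 2, triangles for passage 5 and a line at the mean of the plotted values. Col6a3 and Gsdma sit near 0 outside NM and NPM cells, while Scarb2 and Fkbp9 are present in every sample and highest in NPM.

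Scarb2 and Fkbp9 were expressed in every sample. Scarb2 was at 24.7 to 60.8 CPM in the 15 samples without Ngn3 (median 43.1), 39.1 to 148 CPM in the 6 NP samples (median 64.7), 93.3 to 207 CPM in the 6 NM samples (median 128) and 112 to 503 CPM in the 5 NPM samples (median 409). Its mean level was highest in 6SA NPM at 453 ± 62.3 CPM (SD, n = 2), followed by WT NPM at 338 ± 203 CPM (SD, n = 3) and WT NM at 144 ± 55.7 CPM (SD, n = 3). Fkbp9 was at 37.8 to 110 CPM without Ngn3 (median 62.6), 44.2 to 174 CPM in NP (median 80.8), 81.5 to 142 CPM in NM (median 94.5) and 125 to 838 CPM in NPM (median 543). Its mean was 691 ± 209 CPM (SD, n = 2) in 6SA NPM and 372 ± 236 CPM (SD, n = 3) in WT NPM, and the next was 6SA NP at 120 ± 49.2 CPM (SD, n = 3). For both genes each condition overlapped the next in the order of means. WT NPM overlapped the next condition only through its passage 5 sample, at 112 CPM for Scarb2 and 125 CPM for Fkbp9. The other NPM samples were at 400 to 503 CPM for Scarb2 and 394 to 838 CPM for Fkbp9. By median, NM cells lay between NP and NPM for both genes. The NM samples of Fkbp9 all lay within the range of NP, whereas those of Scarb2 reached above it (207 against 148 CPM).

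The 6SA cultures gave separate samples for the effect of MafA beside Ngn3 and Pdx1. Col6a3 was at 92.04 and 28.9 CPM in 6SA NPM and at 0.634, 0 and 0 CPM in 6SA NP. Gsdma was at 164 and 172 CPM against 1.95, 0.233 and 0 CPM. Both genes were thus almost absent from the NP samples and present in each NPM sample. Scarb2 was at 409 and 498 CPM against 148, 59.9 and 66.4 CPM, and Fkbp9 at 543 and 838 CPM against 174, 108 and 78.5 CPM. In each of the 4 genes the lower NPM sample was above the highest NP sample, as in 9.59% of all genes tested.

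The edgeR quasi-likelihood test called the 4 of 4 genes higher with MafA, against 0.0458% of the 24004 genes tested (11 genes). The spread in this test was estimated over all 12 conditions, including the WT NPM and WT NP samples that chose the genes. With only the compared conditions in the fit, Col6a3 and Gsdma were called and Scarb2 and Fkbp9 were not. Col6a3 rose by 7.69 on the log2 scale (SE 1.35, edgeR adjusted p = 0.0237) and Gsdma by 7.60 (SE 1.48, edgeR adjusted p = 0.0264). Scarb2 rose by 2.31 (SE 0.49, edgeR adjusted p = 0.0343) and Fkbp9 by 2.52 (SE 0.49, edgeR adjusted p = 0.0237), which are 4.97-fold and 5.75-fold as ratios of mean CPM. Permuting the samples exactly (two-sided, on log2(CPM + 1)) gave p = 0.20 for each of them, the smallest that 2 against 3 samples allow, with differences of 5.48, 6.78, 2.42 and 2.56.

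The direction held when any sample was left out, but the call depended on most of them. Without 6SA NP replicate 1 the 4 genes were still called (edgeR adjusted p from 0.0106 to 0.0162), though Col6a3 then had 0 counts and Gsdma 2 counts in 6SA NP, so that their fitted differences are not measured sizes, and without any other sample none was, with adjusted p from 0.0858 to 0.105 for Col6a3, 0.0954 to 0.217 for Gsdma, 0.130 to 0.297 for Scarb2 and 0.0677 to 0.296 for Fkbp9. Leaving out 6SA NP replicate 3 left only passage 2 samples, with log2 differences of 7.28, 7.12, 2.09 and 2.25 in that order. With the 3 left-out pools included, Col6a3 and Gsdma were called (edgeR adjusted p = 0.0132 and 0.0216), while Scarb2 and Fkbp9 were not (0.0510 and 0.0843). Cell markers moved between the same samples: the endocrine markers summed to 7107, 1760 and 1408 CPM in 6SA NP and to 8910 and 7999 CPM in 6SA NPM, and the duct markers to 4532, 18476 and 22170 CPM against 3343 and 3820 CPM. Pdx1 RNA differed too, at 48.4, 34.4 and 21.8 CPM in 6SA NP and 150 and 134 CPM in 6SA NPM. Neurog3 was at 226.5, 34.9 and 38.8 CPM against 163 and 329 CPM, with overlap. The part of the markers and of these factors in the result was not tested. In pools of cells a larger share of cells expressing a gene and more RNA per cell cannot be told apart.

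**Figure D2:**
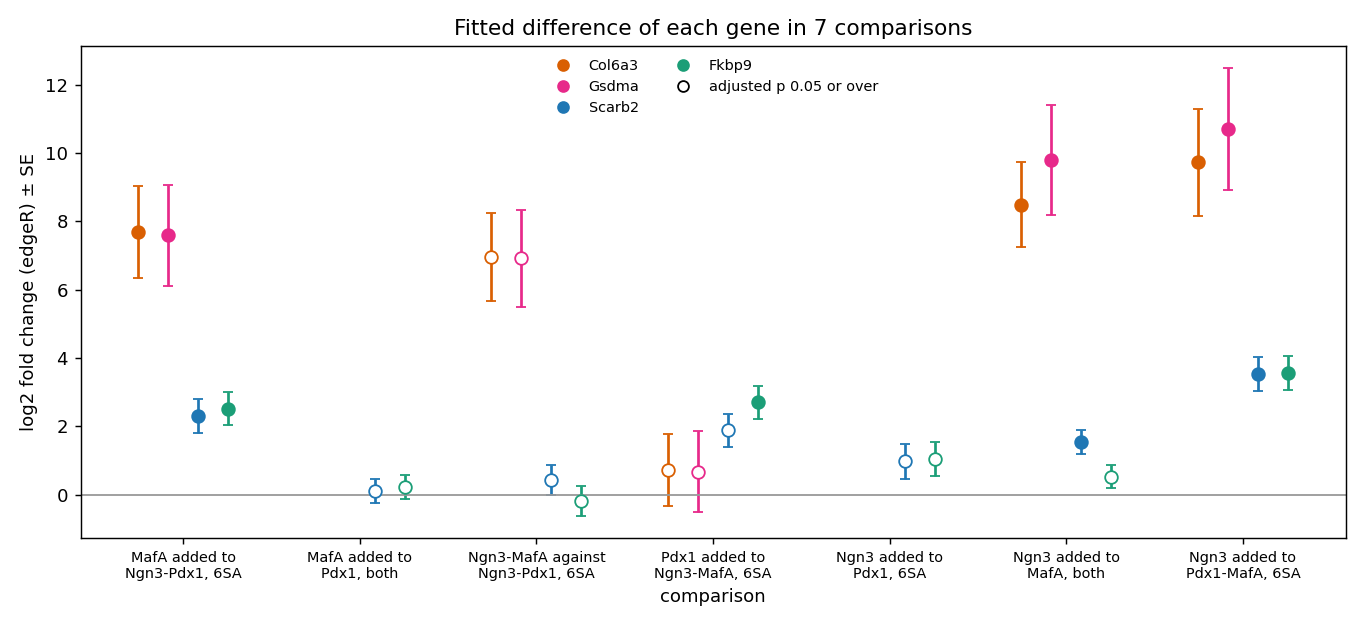
Fitted log2 fold change (vertical axis) with its standard error for each gene in 7 comparisons (horizontal axis), filled where the edgeR adjusted p was under 0.05. The 4 genes are filled for MafA added to Ngn3 and Pdx1 in the 6SA cultures, and Col6a3 and Gsdma are not drawn for MafA or Ngn3 added to Pdx1, where they were at or under 3 counts in both conditions or at 0 in P.

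Without Ngn3, MafA beside Pdx1 was compared over both cultures (PM against P). Mafa RNA was lower in these PM cells than in NPM cells. It averaged 1.565 CPM in WT PM and 0.639 CPM in 6SA PM, against 5.22 CPM in WT NPM and 8.27 CPM in 6SA NPM. The 6SA PM sample at passage 5 had 0 counts of Mafa. Scarb2 was at 42.8, 51.6 and 51.9 CPM in WT PM and 33.4 and 38.6 CPM in WT P, and at 51.5, 41.3 and 24.7 CPM in 6SA PM against 43.1 and 49.5 CPM in 6SA P. Fkbp9 was at 74.1, 61.2 and 83.6 CPM against 43.1 and 62.6 CPM in the WT cultures and at 43.2, 56.4 and 75.6 CPM against 37.8 and 79.1 CPM in the 6SA cultures. Of these, the PM and P samples were apart only for Scarb2 in the WT cultures. The log2 difference over both cultures was 0.10 for Scarb2 (SE 0.35) and 0.23 for Fkbp9 (SE 0.35), and neither passed (edgeR adjusted p = 1.00 for each). Exact permutation tests within cultures gave p = 0.85 for Scarb2 and p = 0.36 for Fkbp9, two-sided, where 0.01 is the smallest possible. Col6a3 and Gsdma had at most 3 counts in each of these samples, so no fold is given. The edgeR test called 0 genes in either direction here (0.0% higher), with 531 genes at an unadjusted p under 0.05, and DESeq2 called 13.

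The difference between these effects of MafA, with Ngn3 and without it, was tested in the 6SA cultures for the pair that was measurable on each side. It was 2.55 on the log2 scale for Scarb2 (SE 0.68) and 2.52 for Fkbp9 (SE 0.68), higher with Ngn3, and did not pass over all genes (edgeR adjusted p = 0.585 for both, unadjusted p = 0.000884 and 0.000907). Mafa RNA was lower in 6SA PM (0 to 1.45 CPM) than in 6SA NPM (3.87 and 12.7 CPM), and its part was not tested. The edgeR test called 0 genes (0.0% higher, 1147 at an unadjusted p under 0.05) and DESeq2 called 72. Over the 6SA Ngn3 comparison and both comparisons without Ngn3 together, Scarb2 differed by 0.84 (SE 0.29) and Fkbp9 by 1.00 (SE 0.29), with edgeR adjusted p = 0.792 and 0.565. In that average, edgeR called 0 genes (0.0% higher, 1122 at an unadjusted p under 0.05) and DESeq2 71.

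Cells with Ngn3 and MafA were also compared with cells with Ngn3 and Pdx1. Col6a3 was at 68.3, 38.2 and 3.06 CPM in 6SA NM and 0.634, 0 and 0 CPM in 6SA NP, without overlap. Gsdma was at 268, 45.2 and 1.53 CPM against 1.95, 0.233 and 0 CPM, and its passage 5 sample lay below the highest NP sample. Their log2 differences of 6.97 (SE 1.29) and 6.92 (SE 1.41) did not pass (edgeR adjusted p = 0.279 and 0.367), and the test called 0 genes (0.0% higher, 1009 at an unadjusted p under 0.05). Same-numbered samples deviated together in this comparison. In a fit blocked on that number Col6a3 and Gsdma were called higher by edgeR (adjusted p = 0.000902 and 0.00462), against 0.0125% of genes. DESeq2 without the block also called them (adjusted p = 0.00134 and 0.0344), among 15 genes. Scarb2 and Fkbp9 differed by 0.42 (SE 0.44) and -0.18 (SE 0.43) between NM and NP, less than their standard errors, and without 6SA NP replicate 1 the value of Fkbp9 was 0.19. Without 6SA NM replicate 3, its passage 5 sample, Col6a3 and Gsdma were the genes called in the unblocked fit (edgeR adjusted p = 0.0335 for both, log2 differences of 7.51 and 7.50), and without any other sample neither was.

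Pdx1 beside Ngn3 and MafA was tested as 6SA NPM against 6SA NM, where Fkbp9 was the member called. Fkbp9 was at 543 and 838 CPM with Pdx1 and at 87.4, 142 and 87.9 CPM without it, a rise of 2.71 on the log2 scale (SE 0.49, edgeR adjusted p = 0.0356), where 0.05% of genes were called higher. This call was lost without any of the 5 samples (adjusted p from 0.0512 to 0.275) and with the left-out pools included (0.0758). Scarb2 was at 409 and 498 CPM against 138, 93.3 and 137 CPM without overlap, and its difference of 1.89 (SE 0.48) did not pass by edgeR (adjusted p = 0.140) but did by DESeq2 (adjusted p = 0.0107). Col6a3 and Gsdma differed by 0.72 (SE 1.06) and 0.68 (SE 1.18), within overlapping ranges, and the sign of both turned when only the first technical repeat was used (-0.042 and -0.068).

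Ngn3 was then added to each of the other factors. Beside MafA, over both cultures, Col6a3, Gsdma and Scarb2 rose and Fkbp9 did not pass. The M samples held 2 counts of Col6a3 and 2 of Gsdma in all, and the ratio of pooled counts in NM to M was 777 for Col6a3 (95% exact counting interval 215 to 6417) and 2004 for Gsdma (555 to 16554). The edgeR adjusted p was 0.000149 for Col6a3 and 0.000396 for Gsdma. Scarb2 was at 52.9 and 30.2 CPM in WT M and 119, 207 and 105 CPM in WT NM, and at 60.8, 32.6 and 54.3 CPM in 6SA M and 138, 93.3 and 137 CPM in 6SA NM. It rose by 1.55 on the log2 scale (SE 0.34, edgeR adjusted p = 0.00592), without overlap in either culture. Fkbp9 was at 57.2 and 65.1 CPM in WT M and 101, 81.5 and 102 CPM in WT NM, while 6SA M, at 79.9, 48.0 and 110 CPM, overlapped 6SA NM, at 87.4, 142 and 87.9 CPM. Its difference was 0.53 (SE 0.33, edgeR adjusted p = 0.487). In this comparison 2.5% of genes were called higher, and 5.12% when the fit was blocked on the replicate number, under which the calls of the 4 genes were the same. Leaving out WT M replicate 2 ended the call of Scarb2 (edgeR adjusted p = 0.0693), and leaving out any other sample did not.

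Beside Pdx1 and MafA in the 6SA cultures (NPM against PM), the 4 genes were called higher, as were 3.29% of genes. Scarb2 rose by 3.53 on the log2 scale (SE 0.51, edgeR adjusted p = 0.000105) and Fkbp9 by 3.57 (SE 0.50, edgeR adjusted p = 0.0001), 11.6-fold and 11.8-fold in mean CPM. The 6SA PM samples had 2 counts of Col6a3 and 3 of Gsdma, and ratios of pooled counts were 1208 (334 to 9980) and 2093 (716 to 10154) with 95% exact counting intervals. Their edgeR adjusted p was 0.000515 and 0.000577. The calls of the 4 genes held under each alternative run, samples left out included. Beside Pdx1 alone (6SA NP against P), no member was called and 0.367% of genes were: Scarb2 differed by 0.98 (SE 0.51) and Fkbp9 by 1.04 (SE 0.50), with edgeR adjusted p = 0.728 and 0.718. Col6a3 and Gsdma had no counts in 6SA P and 14 and 45 counts in 6SA NP, nearly all of them in replicate 1.

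Technical repeats showed how far 50-cell pools of the same culture differ. In these pools, on plain library totals, Col6a3 was at 83.4, 158 and 35.0 CPM in the 3 pools of 6SA NPM replicate 1, and Gsdma at 74.7, 331 and 147 CPM. In 6SA NM replicate 1, Gsdma ranged from 50.8 to 359 CPM, a 7.07-fold spread, and in replicate 2 Col6a3 was at 48.7 and 4.28 CPM, 11.4-fold. Scarb2 varied less, from 324 to 485 CPM in the pools of 6SA NPM replicate 1 and by 1.71-fold in those of 6SA NM replicate 1. Fkbp9 varied by 5.49-fold in 6SA NPM replicate 1, at 871, 456 and 159 CPM. The pool at 159 CPM lay below the highest 6SA NP pool at 221 CPM. The 14 counts of Col6a3 in 6SA NP came from 1 of the 6 pools.

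**Figure D3:**
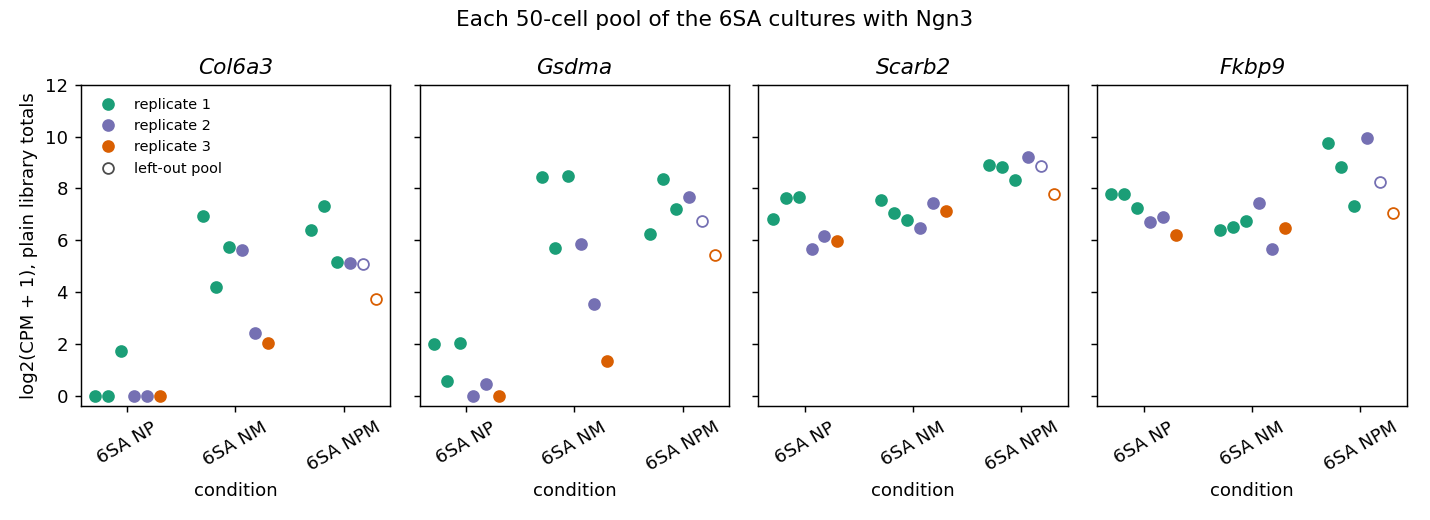
Each pool of the 6SA cultures with Ngn3, as log2(CPM + 1) on plain library totals (vertical axis) by condition (horizontal axis), coloured by replicate and open where the pool was left out for depth. Col6a3 and Gsdma are above 3 counts in each NM and NPM pool, and Scarb2 is higher in each kept NPM pool than in any NP pool, its highest NP pool being at 202 CPM.

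Samples at passage 5 were lowest for the 4 genes in WT NPM and for Col6a3 and Gsdma in 6SA NM, where their levels of 3.06 and 1.53 CPM compare with 38.2 and 45.2 CPM or more at passage 2. This was not so throughout: in WT NM, Gsdma was at 5.14 CPM at passage 5 and 2.87 CPM in passage 2 replicate 2, and in 6SA NM Scarb2 was at 137 CPM at passage 5 and 93.3 CPM in passage 2 replicate 2. Other measures differed between these samples too. The endocrine marker sum was 774 CPM in the passage 5 sample of 6SA NM against 13354 and 5324 CPM at passage 2, and 1024 CPM against 5683 and 4661 CPM in WT NPM. Neurog3 was at 14.6 CPM against 196 and 167 CPM in WT NPM. Each condition had at most 1 sample at passage 5 and 6SA NPM had none after filtering, and the part of passage was not tested.

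Families and pathways of the 4 genes were examined with lists, within which the genes named without a call were picked after their values were seen. In the 6SA comparison of NPM with NP, Col6a3 was the 1 gene called of the 5 collagen VI chains tested. The other chains that make up the collagen VI molecule were close to absent: Col6a1 was at 0.0310 CPM per kilobase of exon or less in 6SA NPM samples and at 0 in WT NPM, and Col6a2 was at 0 in both, whereas Col6a3 was at 2.42 and 7.69 CPM per kilobase in 6SA NPM. Col6a1 differed by -2.91 on the log2 scale (SE 2.32, edgeR adjusted p = 0.734). In WT NM, Col6a1 was at 1.02 and Col6a3 at 1.45 CPM per kilobase on average. Of the 11 matrix partners of collagen VI tested, 0 were called by edgeR in either direction and their median log2 difference was -1.27 (-1.38 with genes at 0 counts set to their bound), against 0.00 over all genes. Biglycan (Bgn) had no counts in 6SA NPM and a mean of 32.5 CPM in 6SA NP without being called. Of 13 genes of procollagen folding and modification, 0 were called (median 0.03), among them the prolyl hydroxylase P4ha2 at -1.23 (SE 0.51) and the collagen galactosyltransferase Colgalt1 at -1.42 (SE 0.56). Both fell with Ngn3 beside Pdx1 and MafA (where 2.5% of all genes were called lower), by 1.96 and 1.99 on the log2 scale (edgeR adjusted p = 0.0247 and 0.0373).

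Among gasdermins, Gsdma was the 1 of 6 tested that was called, and their median log2 difference was 1.36, or 0.91 over the 4 genes with a value or bound. Its close copies were far lower: per kilobase of exon, Gsdma was at 61.5 CPM in 6SA NPM on average, Gsdma2 at 0.429 CPM and Gsdma3 at 0.0689 CPM. Gsdma2 had 7 and 25 counts in 6SA NPM, 52, 42 and 2 counts in WT NPM and at most 12 counts in other samples, so that it was also detected mainly in NPM. Gsdmd and Gsdme, gasdermins that are cleaved by caspases, were expressed in every sample and did not pass with MafA, at -1.11 (SE 0.46) and -0.90 (SE 0.43) on the log2 scale. Gsdmd fell with Ngn3 beside Pdx1 and MafA by 1.79 (edgeR adjusted p = 0.0217), where 2.5% of all genes were called lower. Of the 7 pyroptosis caspases and partners tested, 0 were called with MafA (median -0.53), and the initiator caspase Casp8 and the inflammatory caspase Casp4 fell with Ngn3 beside Pdx1 and MafA by 2.90 and 4.22 (edgeR adjusted p = 0.00117 and 0.0201). Casp8 also fell with Pdx1 beside Ngn3 and MafA, by 2.52 (edgeR adjusted p = 0.0375), where 0.0833% of all genes were called lower.

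Scarb2 was the 1 of 2 members of the CD36 family tested that was called with MafA, and Scarb1, a lipoprotein receptor, differed by 0.14 (SE 0.56). Of 12 genes of the lysosomal membrane and its partners, 0 were called (median 0.48), with Lamp1 at 1.12 (SE 0.71) and Lamp2 at 0.02 (SE 0.35). Of 14 lysosomal hydrolases 0 were called either (median 0.22). With Ngn3 beside Pdx1 and MafA, where 3.29% of all genes were called higher, Hexa, a subunit of beta-hexosaminidase, rose by 2.36 (edgeR adjusted p = 0.0181). None of the other 13 hydrolases was called.

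Fkbp9 was the 1 of 6 FK506-binding proteins of the secretory pathway called with MafA. Fkbp2 was at 71.1 CPM in 6SA NPM and 32.4 CPM in 6SA NP (log2 difference 1.14, SE 0.67), while Fkbp10, which acts on collagen, was at 0.407 and 0.563 CPM. Their median was 0.29. None of 8 FK506-binding proteins of cytosol, nucleus and mitochondria was called, with a median of 0.30 and Fkbp1b the highest at 1.77 (SE 1.05). The share of all genes called higher was 0.0458%, and nothing is read from the lack of further calls in lists of this size.

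**Figure D4:**
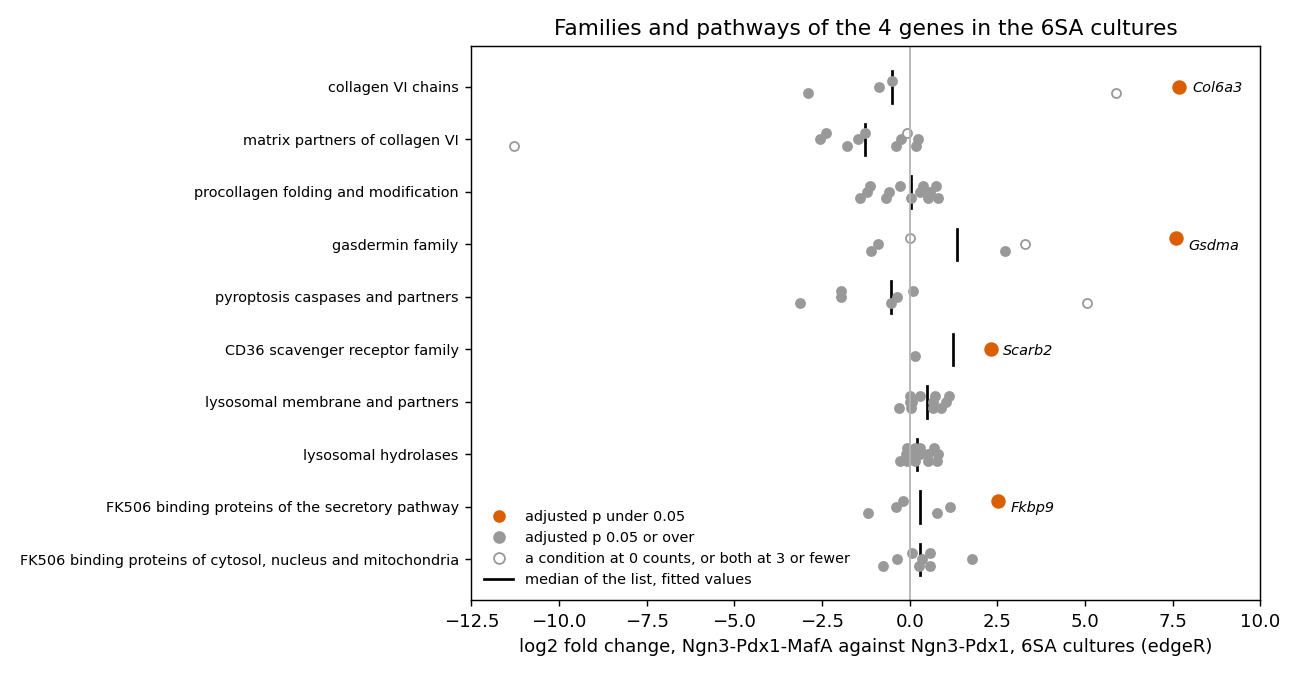
Log2 fold change of each tested gene (horizontal axis) in 10 lists (vertical axis) for NPM against NP in the 6SA cultures, orange where the edgeR adjusted p was under 0.05, open where a condition had 0 counts or both had 3 or fewer, with a line at the list's median of fitted values. Col6a3, Gsdma, Scarb2 and Fkbp9 are the 4 called genes.

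Of 13 beta-cell genes known as MafA targets, 0 passed in the same comparison by edgeR, with a median log2 difference of 2.49, against 0.00 over all genes. Ins1 was at 35.7 CPM in 6SA NPM and 0.323 CPM in 6SA NP (edgeR adjusted p = 0.245), and Slc2a2, the glucose transporter GLUT2, at 27.4 and 0.229 CPM (edgeR adjusted p = 0.206). With Ngn3 beside Pdx1 and MafA, 6 of the 13 rose, against 3.29% of all genes called higher, among them Neurod1, Pcsk1 and Chga. Of the large Maf and reprogramming factors, 0 of 5 were called with MafA, and Mafa itself had 203 counts in 6SA NPM and 1 in 6SA NP (edgeR adjusted p = 0.134). Mean levels in 6SA NPM and 6SA NP were 142 and 34.9 CPM for Pdx1 and 246 and 100 CPM for Neurog3. Endocrine markers did not pass with MafA (0 of 8, median 0.35) and 8 of 8 rose with Ngn3 beside Pdx1 and MafA. Duct markers did not pass with MafA (0 of 10, median -0.78), and 4 of 10 fell with Ngn3 beside Pdx1 and MafA, against 2.5% of all genes called lower, namely Spp1, Krt19, Krt18 and Krt8. Of markers of other cell types in the MafA comparison, Cd14, a co-receptor for lipopolysaccharide in the immune list, fell by 4.33 (SE 0.81, edgeR adjusted p = 0.0237), where 0.154% of all genes were called lower, and no other of the 4 immune markers tested was called (median -2.46). Of 3 acinar markers (median 0.99), 5 mesenchymal (0.00), 6 endothelial (-3.82) and 9 squamous markers (-1.67), 0 were called by edgeR. With genes at 0 counts set to their bound, the medians were -1.76 for the acinar, 1.39 for the mesenchymal and -2.58 for the endothelial list. Mesenchymal markers summed to 0.203 to 6.51 CPM in 6SA NPM and 1.27 to 1.99 CPM in 6SA NP, with Col1a1, Col1a2, Col3a1, Dcn, Lum, Pdgfrb, Thy1 and Postn at 0 in 6SA NPM. In replicates 1, 2 and 3 they summed to 298, 6.91 and 2.87 CPM in WT NM. The sums were 19.7, 0.732 and 1.46 CPM in WT NPM and 13.3, 0.727 and 0.611 CPM in 6SA NM. The part of such cells in the level of Col6a3 was not tested. Squamous markers, from epithelia where gasdermin A is known, summed to 10.2 to 33.9 CPM against 17.7 to 70.8 CPM, with Krt5 and Dsg3 at 0 in 6SA NPM.

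The genes closest in pattern were found by Pearson's r of log2(CPM + 1) over the 32 samples, among 14979 genes with a mean of at least 1 CPM. These samples fall into groups, so r is given as a description. Col6a3 and Gsdma were each other's nearest gene (r = 0.958). After it, Col6a3 was closest to the axonemal dynein gene Dnah10 (r = 0.943) and the neuropeptide gene Gal (r = 0.934), and Gsdma to the sodium channel gene Scn9a (r = 0.949) and Gal (r = 0.942). Gal was at 6259 CPM in 6SA NPM and 50.1 CPM in 6SA NP. Scarb2 was closest to the axon guidance ligand Slit1 (r = 0.924), Tdh (r = 0.915) and the formin Daam1 (r = 0.910). Fkbp9 was closest to the phosphatase Dusp15 (r = 0.922), Tcerg1l (r = 0.921) and the protein kinase gene Prkcb (r = 0.897). Among members, Scarb2 and Fkbp9 had r = 0.880 and Col6a3 and Fkbp9 the lowest, r = 0.757. Against Mafa, r was 0.745 for Col6a3, 0.715 for Gsdma, 0.671 for Scarb2 and 0.709 for Fkbp9.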

How the data were processed

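Reads were single-end and 50 bases long, from libraries made after amplification of poly(A) RNA. Per the labels and the methods, the authors aligned them with GSNAP to mm10 and counted them per Ensembl gene with HTSeq (0.5.3p3). The deposited values are whole-number counts per gene, not normalised, and the strand setting of the counting is not given in the sources used here. Reads from gene copies were not separated further.

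Libraries were kept with over 1000000 gene counts, under 25% spike-in counts and over 10000 genes detected. Technical repeats were summed, and 24004 genes with counts in at least 5 libraries and a variance of log2(CPM + 1) above 0.001 were tested. The 12 conditions were fitted together in edgeR 4.0.16 (R 4.3.3) with TMM scaling, the quasi-likelihood test and Benjamini-Hochberg adjustment over all genes tested, with a threshold of 0.05. DESeq2 1.42.0 was an alternative. The standard error is the absolute log2 difference over the square root of F. The code was tested on simulated counts. Kept libraries and 3 left-out ones held 241563 to 9736403 gene counts (median 5589867). PCR copies were not marked by molecular identifiers, so intervals and the 3-count limit cover counting error only. Spike-in counts (92 sequences) and the rows for reads without a feature (6.42% to 27.8% of counts) or with an ambiguous one (3.44% to 14.2%) were left out of library sizes.

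Same-numbered samples deviated together over the 5000 most expressed genes in NM against NP of the 6SA cultures (r = 0.46, 0.25 and 0.628), in NM against M (r from 0.283 to 0.567) and in PM against P (r from 0.589 to 0.896), though the labels name no shared animal or day for a number. In 6SA NPM against NP they did not (r = -0.299 and 0.193).

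The genes and the lists were chosen with earlier results of these data known. From each list the text names up to 4 genes past the threshold, markers at 0 and, after their values were seen, others of interest, and for each of the 4 genes the 3 most alike in pattern. Bounds use 3 counts per condition. Promoters came from RefSeq (GRCm38.p6), and gene positions and exon lengths from a GRCm38 annotation. A few genes of the lists are not reported here by name.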

Additional observations from a re-analysis of the deposited data

Results flagged for a closer look

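The 3 pools left out for depth were not part of the comparisons, and all came from NPM cells. On plain library totals, Col6a3 was at 70.3 CPM in the WT pool (95% exact binomial interval 51.1 to 94.4), 33.1 CPM in the 6SA pool of replicate 2 (14.3 to 65.3) and 12.2 CPM in the 6SA pool of replicate 3 (3.97 to 28.5). The highest kept NP pool of the same culture was at 0.143 CPM in WT and 2.28 CPM in 6SA. Gsdma was at 216, 108 and 41.6 CPM in these pools (181 to 255, 70.3 to 158 and 24.2 to 66.6), against at most 0.858 and 3.10 CPM in kept NP pools. Scarb2 was at 392 CPM in the WT pool and 468 CPM in the 6SA pool of replicate 2, above the highest NP pools at 110 and 202 CPM. Fkbp9 was at 233 CPM and 302 CPM in the same pools, above 126 and 221 CPM. The pool of 6SA replicate 3, the only NPM pool of the 6SA cultures at passage 5, was at 220 CPM for Scarb2, with an interval of 177 to 271 that reached below the highest NP pool, and at 132 CPM for Fkbp9, below it.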

How the results depend on the processing

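No called result changed sign. Of differences that were not called, leaving out 1 sample took Scarb2 and Fkbp9 in MafA beside Pdx1 (0.10 and 0.23 on the log2 scale) over -0.025 to 0.21 and -0.0049 to 0.53, Col6a3 in Pdx1 beside Ngn3-MafA (0.72) over -0.34 to 1.55 and Fkbp9 in NM against NP (-0.18) over -0.46 to 0.19. With the first technical repeat only, Col6a3 and Gsdma in Pdx1 beside Ngn3-MafA were at -0.042 and -0.068. The counts of genes called moved more than the members. In the order of MafA beside Ngn3-Pdx1 (6SA), MafA beside Pdx1, the average of 3 comparisons, the interaction, Ngn3 beside MafA, Ngn3 beside Pdx1, Ngn3 beside Pdx1-MafA, Pdx1 beside Ngn3-MafA and NM against NP, the main counts were 48, 0, 0, 0, 1121, 88, 1390, 32 and 0. DESeq2 called 465, 13, 71, 72, 1928, 404, 2901, 419 and 15, and without a gene filter edgeR called 613, 28, 269, 278, 2077, 625, 2463, 590 and 183. With only the compared conditions in the fit, 129 genes were called for MafA beside Ngn3-Pdx1, 17 in the average, 5 in the interaction, and 162, 2614, 367 and 4 in the last 4 comparisons. Without edgeR's legacy setting, an alternative added after seeing the data, the counts that moved were 124 for MafA beside Ngn3-Pdx1, 7 in the average, and 206, 2567 and 180 for Ngn3 beside Pdx1, Ngn3 beside Pdx1-MafA and Pdx1 beside Ngn3-MafA. With the replicate number as a block they were 136, 15, 2123, 414, 2447, 125 and 12 for MafA beside Ngn3-Pdx1, the average and the 5 comparisons from Ngn3 beside MafA on, and beside the calls given for NM against NP the block changed no member's call. Leaving out 1 sample gave 0 to 117, 0, 0, 0 to 1, 515 to 1033, 0 to 105, 560 to 944, 0 to 3 and 0 to 2. Causes were not tested.

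For MafA beside Ngn3-Pdx1 in the 6SA cultures, Gsdma was not called with the first technical repeat only (6.88 on the log2 scale, edgeR adjusted p = 0.0819). Scarb2 and Fkbp9 were not called with only the compared conditions (2.29 and 2.47, adjusted p = 0.0884 and 0.0632) or with all libraries (2.07 and 2.08, adjusted p = 0.0510 and 0.0843). Leaving out 1 sample gave 6.64 to 12.14 for Col6a3, 7.12 to 10.19 for Gsdma, 2.08 to 2.84 for Scarb2 and 2.18 to 2.89 for Fkbp9. The upper values of Col6a3 and Gsdma are without 6SA NP replicate 1, where the other NP samples held 0 and 2 counts, so they depend on the fit and are neither measured folds nor bounds. The block gave edgeR adjusted p = 0.000774, 0.00209, 0.0127 and 0.0103, but 2 pairs with r of -0.299 and 0.193 do not show that numbers pair these samples. In the interaction, Scarb2 and Fkbp9 were called without the gene filter (adjusted p = 0.0340 and 0.0347). With 2 samples in 6SA NPM, the precision of each 6SA difference rests on the spread estimated over all conditions.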
